A study of Mus musculus with 3 samples.

Results

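The replication-dependent histone genes of the mouse were examined in a ChIP-seq list of GLI3-bound regions from E10.5 forelimb buds. Members were the 70 genes of the GENCODE M21 annotation whose symbol begins with Hist1h, Hist2h, Hist3h or Hist4h, 67 of them protein-coding and 3 pseudogenes. A peak was assigned to them when its summit lay within 2 kb of a transcription start site (TSS) of a member, which selected 38 of the 17149 listed peaks. GLI3 acts downstream of Hedgehog (HH) signaling, where its repressor form keeps target genes of the limb bud silent. The experiment held 2 ChIP libraries and 1 input library, all from forelimb buds of 32 to 35 somites on a mixed strain background, with 2 litters of limb buds per reaction. All animals belonged to the same condition: the series describes mice whose own Gli3 gene carries a FLAG tag, while the genotype label reads wild type. The deposited list was treated as 1 joint call from both ChIP replicates against the input. It gives no value per replicate, so no value below has a replicate error and no difference was tested.

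Replication-dependent histones are the proteins that package newly made DNA during S phase. The core histones H2A, H2B, H3 and H4 form the nucleosome, and the linker histone H1 binds the DNA between nucleosomes. Their genes lie in clusters, most lack introns, and many H2A and H2B genes are arranged head to head around a shared promoter. Their mRNAs end in a conserved stem-loop rather than a poly(A) tail, and stem-loop binding protein (SLBP) holds that hairpin during processing, export and translation. Because each core histone class is encoded by many near-identical copies, short reads from one copy can be hard to place.

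The members carried the features of this gene family in the GRCm38.p6 genome (the same build as mm10). There were 6 H1, 20 H2A, 19 H2B, 12 H3 and 13 H4 genes, and in 65 of the 70 every annotated transcript had a single exon. A stem-loop of 6 paired bases and a 4-base loop began 22 to 59 bp after the stop codon (median 31) in 65 of the 67 protein-coding members. The same search found it in 77 of 21664 protein-coding genes (0.355%). It was not found within 150 bp of the stop codon of Hist1h2an or Hist2h2be. The 65 stem-loops had 8 distinct sequences, the most frequent in 41 genes. The stem-loop and the 8 bases after it are shown for the most strongly enriched gene of each of 3 classes, with the stem-loop in capitals.
Hist1h4f (H4): GGCCCTTTTCAGGGCCacccactt
Hist1h3g (H3): GGCTCTTCTTAGAGCCacccatct
Hist2h2bb (H2B): GGCTCTTTTCAGAGCCactttagt
The H4 gene differed from the most frequent form in its stem (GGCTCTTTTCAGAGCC in 41 genes against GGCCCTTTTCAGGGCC in 8 of 13 H4 genes), and the H3 gene differed in its loop.

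Many histone genes had a listed peak, and few of the peaks passed the FDR threshold. A listed summit lay within 2 kb of 49 of the 70 genes, or 48 of the 67 protein-coding members (71.6%), against 32.4% of all protein-coding genes. In an alternative chosen after seeing the data, only peaks with at least 50% of their 32-base words found once in the genome were counted. Then 20 of the 67 (29.9%) had a summit within 2 kb, against 32.0% of all protein-coding genes. That filter kept 19 of the 38 histone peaks but 98.3% of all listed peaks, while all 67 genes stayed in the count. A fall in the histone share was therefore largely built in, and no conclusion is drawn from it. Because the genes are packed closely, 27 of the 38 peaks lay within 2 kb of 2 or 3 members. Counting only the member with the nearest TSS left 33 genes. When each peak was instead given to the nearest TSS of any protein-coding gene, 31 of the 67 protein-coding members (46.3%) had one, against 29.0% of all protein-coding genes. At an FDR under 0.05, the threshold used for GLI3 peaks by the study, 14 of the 67 (20.9%) had a summit within 2 kb, close to the background of 18.1%. Of the 38 peaks themselves, 9 had an FDR under 0.05 (23.7%, 95% Wilson interval 13.0 to 39.2%), against 42.5% of the whole list. The interval covers counting error over peaks only. Another 7 peaks (18.4%) were listed with an FDR of 1, against 10.8% of all listed peaks.

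The enrichment of these peaks over input was moderate. Their median maximum log2 fold enrichment was 2.11 (order-statistic 95% interval 2.01 to 2.29, range 1.75 to 3.10). The median was 2.23 over all listed peaks, 2.26 over 9087 other peaks within 2 kb of a protein-coding TSS, and 2.203 over 187 peaks nearest to other single-exon genes, all within that interval. The best histone peak ranked 1648 in the list, and 2 of the 38 were in the top 2500. For reference, the peaks at the HH target genes Ptch1 and Gli1 ranked 2 and 7, with log2 fold enrichments of 6.05 and 5.76. Histone peaks were also short, with a median length of 150 bp against 250 bp over the list.

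**Figure D1:**
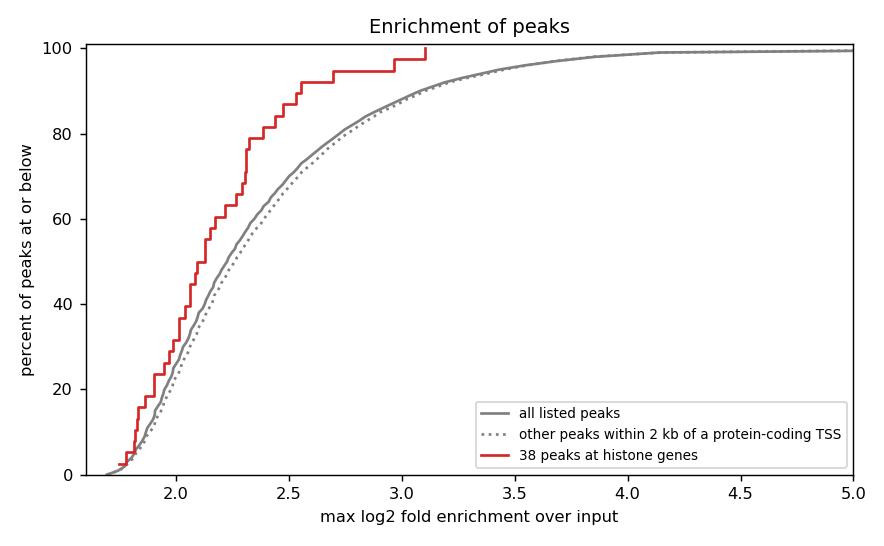
Cumulative percentage of peaks (vertical axis) at or below each maximum log2 fold enrichment over input (horizontal axis) for the 38 peaks at histone genes (red steps), all listed peaks (solid grey) and other peaks within 2 kb of a protein-coding TSS (dotted grey). The red steps lie to the left of both grey curves over most of their range and end at 3.10, while the axis is cut at 5.

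H4, the most conserved core histone, had 8 peaks, of which 4 had an FDR under 0.05, a share near the 42.5% of the whole list. The strongest histone peak of the list was at Hist1h4f (chr13:23551050-23551499, log2 fold enrichment 3.10, FDR listed as 0), with its summit 291 bp after the TSS in the coding sequence. Hist1h4a had a peak of 2.55 (chr13:23761300-23761599, FDR 0.00706) with the summit 232 bp before its TSS. The single peak of Hist2h4 reached 2.44 (FDR 0.0208), 51 bp before the TSS, and that of Hist1h4k reached 2.32 (FDR 0.0374), 68 bp after it. Thus 2 of the 4 strongest H4 peaks lay before the gene. The other 4 H4 peaks, at Hist1h4n, Hist1h4m, Hist1h4c and Hist1h4j, had log2 fold enrichments of 2.095, 2.08, 1.83 and 1.75, with FDR values from 0.244 to 1.

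H3, whose amino-terminal tail carries many regulatory modifications, had the most peaks for its number of genes when peaks in copied sequence were counted. Of its 12 genes, 9 had a summit inside the gene, and its 11 peaks ran from 1.78 to 2.70. The highest were at Hist1h3g (chr13:23535400-23535949, 2.70, FDR 0.00228) and Hist1h3e (chr13:23562050-23562399, 2.38, FDR 0.0374). Hist1h3b and Hist1h3i fell just above the threshold, at 2.31 and 2.29 with an FDR of 0.0704. All words were found once in the genome in the H3 peaks of 1.78 (Hist1h3h) and 1.90 (Hist1h3i). In the other H3 peaks the share of such words was 0 to 42.4%, against 65.5 to 100% in the H1 peaks. The place of H3 above H1 in peaks per gene therefore rested on peaks in copied sequence.

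H2B, H2A and H1 each had 1 peak under the threshold. In the H2B class of 19 genes, 8 peaks ran from 1.82 to 2.97, and the second strongest histone peak overall was at Hist2h2bb (chr3:96269850-96270199, 2.97, FDR listed as 0). Hist1h2bn and Hist1h2bg followed at 2.31 each, with an FDR of 0.0704. In the H2A class 20 genes shared 6 peaks, from 1.95 to 2.53. The highest was at Hist1h2ak (chr13:21753400-21753649, 2.53, FDR 0.00706), and Hist3h2a had peaks of 2.27 and 2.15. Among the H1 genes, Hist1h1c alone had 3 peaks, of 2.47 (FDR 0.0114), 2.06 and 1.99, at 84, 394 and 944 bp after its TSS. Hist1h1b had a peak of 2.13 and Hist1h1e one of 1.82. A peak of 2.22 (chr13:23621500-23621749, FDR 0.133) also had its summit inside Hist1h1e, but is counted with H2B because the annotated TSS of Hist1h2be was nearer, at 548 bp. That TSS lies 35168 bp before the Hist1h2be start codon.

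The peaks are described by genomic cluster, here a run of members with gaps of at most 500 kb; the distance rule itself places them there. The Hist1 genes formed 2 large groups on chromosome 13. The first (chr13:21715763-22043676) held 24 genes and 14 histone peaks, 2 of them under an FDR of 0.05. The second (chr13:23531050-23934851) held 31 genes and 17 peaks, 5 under the threshold. Counting all listed peaks, these spans held 4.88 and 4.46 peaks per 100 kb, against 0.648 over the placed genome. Most of the peaks in these spans were the ones chosen for lying near a histone TSS, so the density is a description only. The Hist2 group (chr3:96219865-96270132) held 10 genes and 4 peaks, 2 under the threshold. The Hist3 group (chr11:58948920-58956830) held 3 genes and 3 peaks, none under the threshold. The isolated genes Hist1h2al (chr13:51202727-51203065) and Hist4h4 (chr6:136801553-136804415) had no listed summit within 2 kb.

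**Figure D2:**
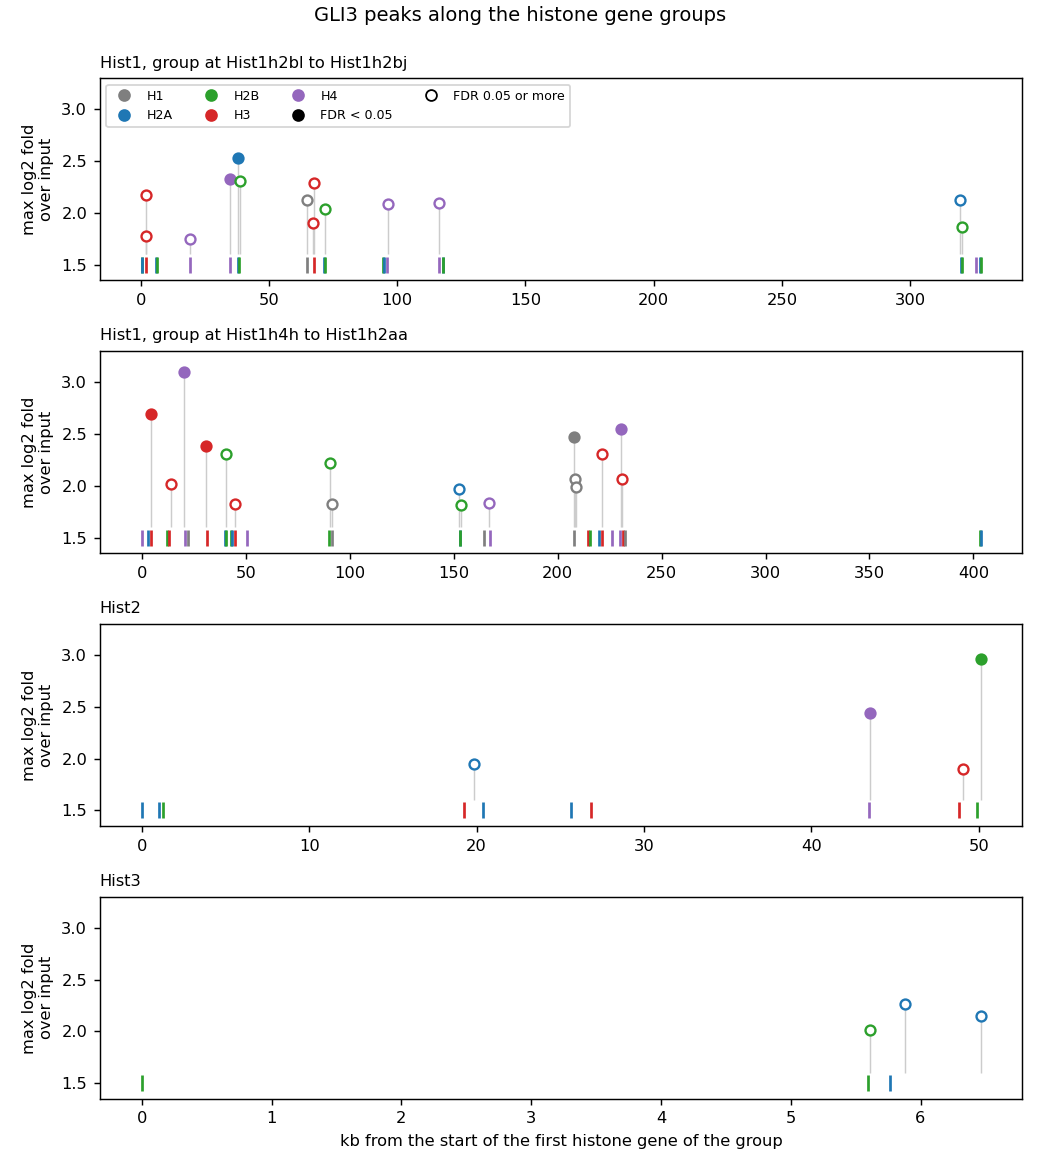
Maximum log2 fold enrichment over input (vertical axis) of each histone peak along the 4 groups that hold any, in kb from the first histone gene; each panel has its own scale. Ticks at the bottom are gene TSSs, colours are histone classes, and filled points are the 9 peaks with an FDR under 0.05. The second Hist1 group holds 5 of the filled points, the first Hist1 group and the Hist2 group 2 each, and the Hist3 group none.

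Summits lay within the histone genes rather than at their start. Of the 38, 32 (84.2%) were downstream of the nearest histone TSS, with a median of 228.5 bp into the gene (interquartile range 118.75 to 311.5, full range -548 to 944). The interval of 100 to 500 bp after the TSS held 24 of them (63.2%). Among the 9087 other peaks near a protein-coding TSS the median was -3 bp, 48.5% were downstream, and 16.9% lay in the same interval. Since histone genes are short and lack introns, the 187 peaks nearest to other single-exon genes are the closer comparison: their median was 43 bp, with 56.7% downstream and 17.1% in the interval. A total of 30 histone summits lay inside a member gene and 24 inside coding sequence, among them 7 of the 9 under an FDR of 0.05. The summits in coding sequence were a median of 199 bp after the start codon (range 6 to 353).

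**Figure D3:**
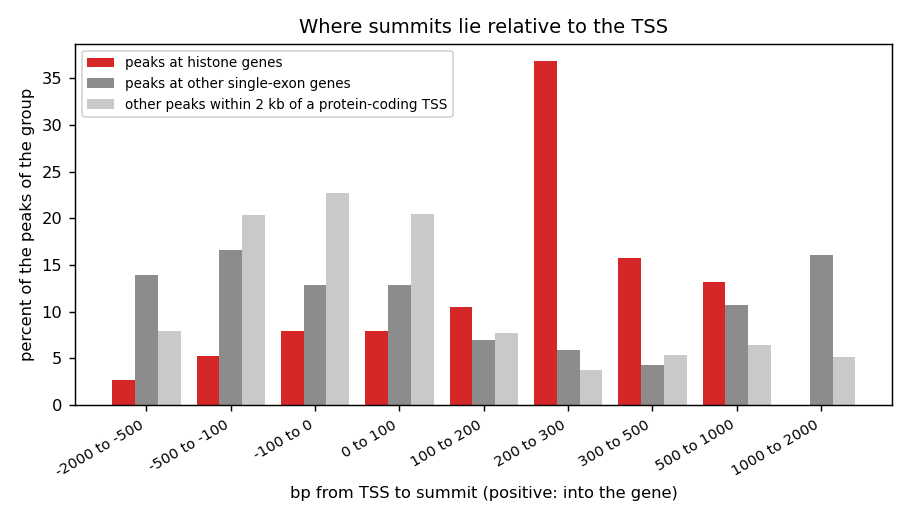
Percentage of peaks (vertical axis) by distance from TSS to summit (horizontal axis, bins of unequal width, positive into the gene) for peaks at histone genes (red), peaks nearest to other single-exon genes (dark grey) and all other peaks within 2 kb of a protein-coding TSS (light grey, which include the dark group). The red bar at 200 to 300 bp reaches 36.8%, against 5.88% and 3.73% for the grey bars.

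**Figure D4:**
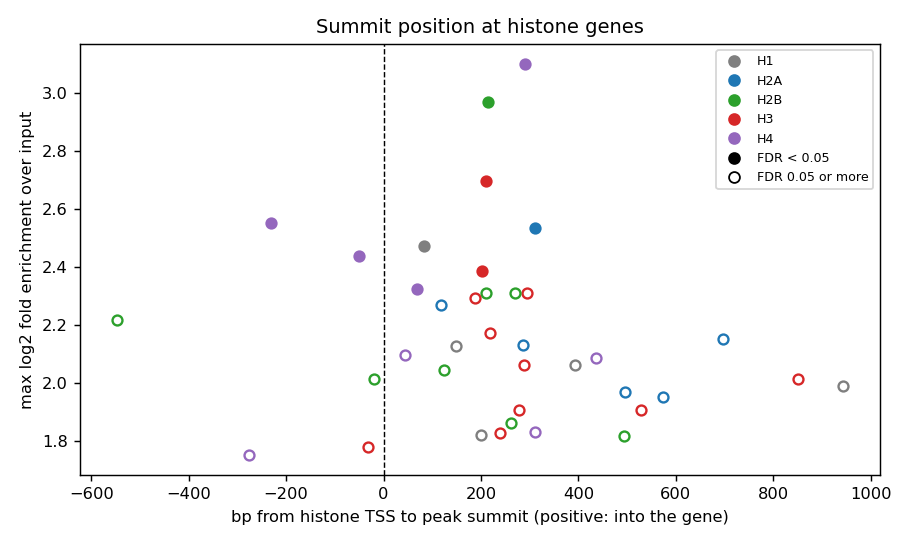
Maximum log2 fold enrichment over input (vertical axis) against distance from the nearest histone TSS to the summit (horizontal axis, positive into the gene; dashed line at the TSS) for the 38 peaks, coloured by class and filled where the FDR was under 0.05. Most points lie between 100 and 500 bp, and 6 points lie before the TSS.

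The H3 peaks show how closely the sequence around a summit is shared among copies. In 8 of 11, the summit was 150 to 300 bp after the TSS. The 61 bases of coding sequence around the Hist1h3g summit, from base 157 of the coding sequence, were identical in all 12 H3 genes, of which 9 were nearest to a listed peak. This run is shown once because it stands for every copy (Hist1h3g, chr13:23535602-23535662, plus strand).
H3 genes: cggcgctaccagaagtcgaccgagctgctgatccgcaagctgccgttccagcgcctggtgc
Hist1h3g, Hist1h3e and Hist1h3b had peaks of 2.70, 2.38 and 2.31 over this run, while Hist1h3c and Hist2h3c1, with the same letters, had no listed summit within 2 kb.

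The H4 genes differ a little more, so the corresponding stretch around the Hist1h4f summit is printed for genes with and without a peak. It begins at base 249 of the coding sequence, and capitals mark bases that differ from Hist1h4f. The peak value is that of the gene: the Hist1h4k summit lay 68 bp after the TSS, outside its printed stretch.
Hist1h4f (chr13:23551335-23551395, minus strand, peak 3.10): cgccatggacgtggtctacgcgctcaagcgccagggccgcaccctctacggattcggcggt
Hist1h4k (chr13:21750197-21750257, minus strand, peak 2.32): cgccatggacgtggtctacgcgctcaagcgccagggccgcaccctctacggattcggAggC
Hist1h4h (chr13:23531363-23531423, plus strand, no peak): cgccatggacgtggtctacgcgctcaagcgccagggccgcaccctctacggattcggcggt
Hist4h4 (chr6:136804071-136804131, minus strand, no peak): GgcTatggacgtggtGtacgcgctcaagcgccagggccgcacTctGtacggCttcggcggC
Hist1h4h was identical to Hist1h4f over all 61 bases, Hist1h4k at 59 and Hist4h4 at 54. A peak was therefore listed at Hist1h4f and not at a gene with the same 61 bases.

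Many of the peaks lay in sequence with further copies in the genome. Uniqueness was measured as the share of 32-base words found once in the genome, on either strand. At least 50% of the words were unique in 19 of the 38 histone peaks, against 98.3% of all listed peaks and 99.1% of other promoter peaks. Over the 38 peaks the median was 53.2%; 12 peaks were fully unique and 9 had no unique word. None of those 9 was among the peaks with an FDR under 0.05, whose values ran from 30.4% to 100%. Within 500 bp of the gene's 5′ end the median was 63.0% in the 33 genes nearest to a peak and 64.5% in the 37 others. Over coding sequences it was 14.0% in the 32 protein-coding genes nearest to a peak and 20.5% in the 35 others. No word was unique in 13 coding sequences, of which 4 (Hist1h2bc, Hist1h4m, Hist1h4n and Hist2h2aa2) belonged to genes nearest to a peak. Pairs with identical coding sequence were Hist1h2ao and Hist1h2ap, Hist1h2bq and Hist1h2br, Hist1h4m and Hist1h4n, Hist2h2aa1 and Hist2h2aa2, and Hist2h3c1 and Hist2h3c2. Whether reads that match several copies were kept is not given in the sources used here, so the assignment of a peak to a single copy is uncertain.

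**Figure D5:**
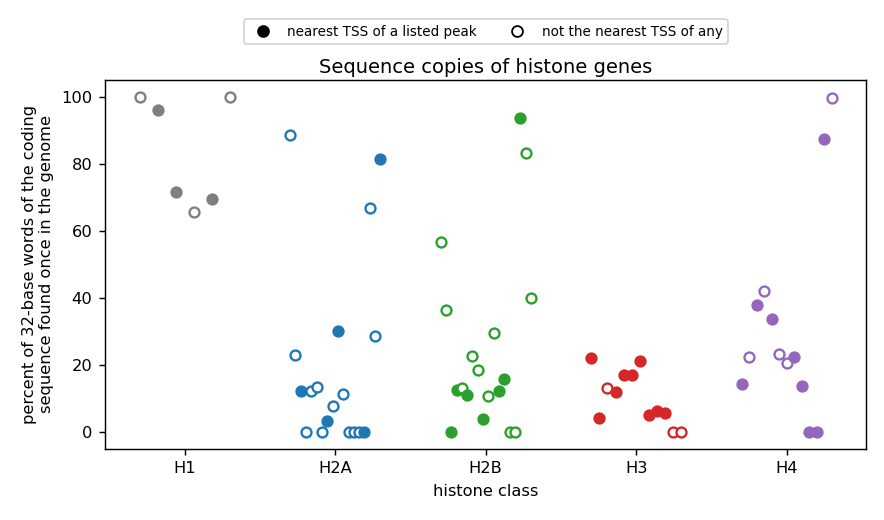
Percentage of 32-base words of each coding sequence that occur once in the genome (vertical axis) by histone class (horizontal axis); each point is 1 of the 67 protein-coding genes, filled where it is the nearest TSS of a listed peak. Filled and open points overlap in every class, and 9 of the 13 points at 0% are open.

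Summits were also placed relative to the head-to-head gene pairs. The clusters held 15 pairs of members transcribed away from each other with TSSs 173 to 660 bp apart. In 11 of the 15 a listed summit lay within 2 kb, and in 1 of these 11 (9.09%) it lay between the TSSs. Of 740 other protein-coding pairs within 1 kb, 428 had a listed summit within 2 kb and 163 of these (38.1%) had it between the TSSs. Of the 228 such pairs with TSSs as far apart as those of the histone pairs, 139 had a summit within 2 kb and 85 (61.2%) had it between the TSSs. The histone pair with a summit between the TSSs, Hist3h2bb-ps and Hist3h2a, includes a pseudogene. Over the 13 histone pairs of protein-coding genes, 10 had a summit within 2 kb and 0 had it between the TSSs. These shares were not tested. In 4 pairs both genes were nearest to a peak of their own, in 3 only 1 was, and in 8 neither, so that 4 of the 11 pairs had only a summit nearer to another gene. At the Hist1h2ak and Hist1h2bn pair, for example, there were separate peaks of 2.53 and 2.31, each inside its own gene.

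The peaks were searched for the GLI consensus GACCACCCA. With at most 1 mismatch on either strand within 250 bp of the summit, 2 of the 38 peaks (5.26%, Wilson interval 1.46 to 17.3%) held a match, against 17.9% of all listed peaks, 15.8% of other peaks near a protein-coding TSS and 13.4% of those at other single-exon genes. Both of these latter shares lie within the interval. The share was 11.1% over the 9 peaks with an FDR under 0.05, and both matches were among the 19 peaks with at least 50% unique words. Exact matches were rare throughout, at 0 of the 38, 2.17% of all listed peaks, 1.31% of other promoter peaks and 0% of those at single-exon genes. The 2 matches, at Hist1h4f (67 bp from the summit) and Hist1h4c (54 bp), both read GGCCACCCA and lay at the end of the histone mRNA stem-loop. There the last 4 bases of the stem and the next 5 bases spell the match. The stem-loops with their following bases are shown for the 4 genes of 65 in which these 9 bases (in capitals) match with at most 1 mismatch. All 4 are H4 genes, and 3 of them were nearest to a listed peak, against 8 of all 13 H4 genes (61.5%).
Hist1h4f (chr13:23551283-23551306, minus strand, peak 3.10): ggcccttttcagGGCCACCCActt
Hist1h4c (chr13:23698081-23698104, minus strand, peak 1.83): ggcccttttcagGGCCACCCAcaa
Hist1h4k (chr13:21750142-21750165, minus strand, peak 2.32): ggcccttttcagGGCCACCCActt
Hist1h4b (chr13:23757366-23757389, plus strand, no peak): ggtccttttcagGACCACTCActg
The match at Hist1h4k lay more than 250 bp from its summit, and that at Hist1h4b was in a gene with no listed peak. A match to these letters is a description and not a site.

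Promoter elements known from histone genes were counted in all members and by class. In the window from 250 bases before to 50 after the TSS, CCAAT on either strand occurred in 59 of 70 genes (84.3%, against 39.1% of all protein-coding promoters) and TATAAA on the sense strand in 30 (42.9% against 8.69%). The octamer ATTTGCAT, the letters bound by Pou2f1 (OCT1), was found on either strand in 17 genes (24.3% against 1.58%), 9 of 19 H2B and 8 of 20 H2A, and in none of the H1, H3 or H4 genes. TTTNGCGC, on either strand, was in 15 genes (21.4% against 1.67%), 8 H2A and 7 H2B, and in none of the H1, H3 or H4 genes. CCAAT was present in all H2A and H2B genes but in 4 of 13 H4 genes (30.8%), below the share of all promoters. The GLI consensus with at most 1 mismatch was in 1 of 70 (1.43%, against 6.50% of all promoters). In the 33 genes nearest to a peak and the 37 others, the octamer was found in 24.2% and 24.3%, CCAAT in 81.8% and 86.5%, and TATAAA in 48.5% and 37.8%. TTTNGCGC was found in 3 of the 33 (9.09%) and 12 of the 37 (32.4%). These shares were not tested. Hist1h4a and Hist2h4 were the only genes among the 9 best peaks with the summit before the TSS. The 250 bases before the Hist1h4a TSS, which hold the summit, are shown with the searched elements in capitals. They held 1, a CCAAT box that reads ATTGG on this strand. Hist1h4a also had a TATAAA in the searched window, but after the annotated TSS and so not among the printed bases.
Hist1h4a (chr13:23761231-23761480, minus strand): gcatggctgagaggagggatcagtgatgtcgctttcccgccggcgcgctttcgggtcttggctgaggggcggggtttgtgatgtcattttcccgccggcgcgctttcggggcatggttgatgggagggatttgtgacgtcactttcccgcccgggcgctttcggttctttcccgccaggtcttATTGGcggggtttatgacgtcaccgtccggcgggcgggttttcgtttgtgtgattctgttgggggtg
Around the summits, GC content was a median of 57.7% in histone peaks against 63.9% in other promoter peaks, and the observed to expected CpG ratio was 0.870 against 0.796.

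No listed summit lay within 2 kb of 21 genes. They include the testis histone genes Hist1h1t, Hist1h2aa and Hist1h2ba, the H4 genes Hist1h4b, Hist1h4d, Hist1h4h, Hist1h4i and Hist4h4, and the H3 genes Hist1h3c and Hist2h3c1. The others were 6 further H2A genes (Hist1h2ag, Hist1h2aj, Hist1h2al, Hist2h2aa1, Hist2h2ab, Hist2h2ac) and 5 further H2B genes (Hist1h2bb, Hist1h2bj, Hist1h2bm, Hist2h2be, Hist3h2ba).

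The number of genes with a summit near the TSS depended on the distance limit, with 36 genes at 1 kb, 49 at 2 kb and 54 at 5 kb, while the number of peaks was 38, 38 and 39. The farthest summits inside it were at Hist1h1c (944 bp), Hist1h3f (850 bp) and Hist3h2a (697 bp). Just outside it, 2335 bp from the annotated TSS of Hist1h1d, a peak of 2.11 (FDR 0.234) had its summit in the Hist1h1d coding sequence. That gene was left without a peak of its own by the distance rule.

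Listed peaks were also found at genes that serve histone mRNA and chromatin assembly. Of 17 genes for transcription and 3′ end processing of histone mRNA, 14 (82.4%) had a listed summit within 2 kb, and 8 (47.1%) had one under an FDR of 0.05, against 32.4% and 18.1% of all protein-coding genes. The highest were Zfp473, a zinc-finger protein of the 3′ end processing complex (3.01), and Hinfp, an activator of H4 genes (2.81). Also under the threshold were Ncbp2 and Ncbp1 of the cap-binding complex (2.70 and 2.55), Eri1, an exonuclease acting on the histone mRNA end (2.67), Pou2f1 (2.58), Lsm10 of the U7 particle (2.38) and Srrt (2.35). Slbp had a peak of 1.98 (FDR 0.470), and Npat, the coactivator of histone transcription, one of 1.82 (FDR 1). Coil, Cstf2 and Lsm11 had none. Of 8 histone chaperones 5 (62.5%) had a listed summit and none was under the threshold, among them Chaf1a (2.16) and Asf1a (2.04). Of 11 replication-independent histone genes 9 (81.8%) had a listed summit and 3 (27.3%) had one under the threshold: H2afz, H2afy and H2afv, at 2.85, 2.79 and 2.52. In 89 cytosolic ribosomal protein genes, another set of highly expressed genes, 36 (40.4%) had a listed summit and 17 (19.1%) had one under the threshold, with a median summit position of -38.5 bp.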

How the data were processed

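GLI3-FLAG ChIP-seq was analysed from 1 peak list, which the authors called with CisGenome 2.1.0 and attached to ChIP replicate 1; the study's methods name both replicates. The submitters' processing notes list Bowtie2 2.2.5 and mm10. The deposited FDR is a q-value over the whole list. The maximum log2 fold enrichment over input, the maximum T score that sets the rank, and the −log10 Poisson p-value are the authors' deposited values. The T score enters here only through the rank, and the −log10 value supports no statement here. Read depth is unknown, since the study gives only a lower bound, and shares of the list have no replicate error. Pooling of the replicates is not stated in the list.

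Peak ends were checked against GRCm38.p6 (0 lay beyond a chromosome end), and 5 peaks on unplaced sequence were left out. Genes came from GENCODE M21. Summits were assigned to TSSs with Python 3.11.15, numpy 2.4.6 and pandas 2.3.3. Word uniqueness was counted over the whole genome. The scripts were tested on simulated peaks and sequences. All results are counts, medians and shares, without tests. Intervals for medians are order-statistic intervals, and those for shares are Wilson intervals. Any member could be named with its peak values, among them the 10 best-ranked peaks and those under an FDR of 0.05. Peaks just inside and outside 2 kb, members without a peak and genes of the pathway lists were also named. Kinase symbols beginning with Rps were left out of the ribosomal protein list. The members and lists were chosen with earlier results of these data known. Sequences were read from GRCm38.p6, since the RefSeq promoter table held none of the members' symbols.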

Additional observations from a re-analysis of the deposited data

How the results depend on the processing

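No paired analysis was possible because ChIP replicates have no values of their own, and for the same reason leaving out each replicate was not run. Of 49 alternatives over 6 results, 42 of them planned and 7 added after seeing the data, 39 stayed within the stated interval (counts within 1.5 times) and 10 did not; 0 changed sign. Taking peaks under an FDR of 0.05 left 9 peaks, 14 genes with a peak and a median log2 fold enrichment of 2.53. At an FDR under 0.01 there were 5 peaks, 10 genes, a median of 2.70 and a GLI motif in 20% of the peaks, which is 1 of 5 (Hist1h4f). Among these peaks the FDR rose as the fold enrichment fell, so the filter leaves fewer peaks and a higher median by construction. The cause of the shift in the GLI motif share was not tested. Requiring an exact GLI motif left 0% of the peaks with one, against 2.17% of the whole list. Requiring that at least 50% of the 32-base words of the peak be unique, an alternative chosen after seeing the data, left 19 peaks and 21 genes. Of the 67 protein-coding members 20 (29.9%) had such a peak, against 32.0% of all protein-coding genes. The fall was largely built in, since the filter removed a larger share of histone peaks than of all listed peaks. The median distance was 201 bp into the gene, and 26.3% of the peaks had an FDR under 0.05.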

Other observations

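Peaks that belong to no histone gene lay in and beside the clusters. The strongest was chr13:22050600-22051199, 7753 bp from the Hist1h2bj TSS and inside the unclassified gene Gm48356, with rank 836, a log2 fold enrichment of 3.44 and a GLI motif within 250 bp of its summit. It exceeded every peak at a histone gene. A peak 10055 bp from the Btn2a2 TSS reached 2.81 (chr13:23498700-23499099, rank 2905). In the first Hist1 group, the peak 80 bp from the Zfp184 TSS reached 2.13 (FDR 0.233). The nearest listed summits to the isolated genes Hist1h2al and Hist4h4 were 18282 and 11213 bp away, with log2 fold enrichments of 2.66 and 1.88.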
